A study of Mus musculus with 6 samples.

Results

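The genes described are 10 antioxidant genes, found by symbol among the 55291 rows of the deposited table: the transcription factor gene Nfe2l2, its targets Nqo1, Gclc, Gclm, Slc7a11, Txnrd1, Srxn1, Gsr and Prdx1, and the lipid peroxidase gene Gpx4. All 10 were present and all 10 passed the filter on low values. They were compared between tumour-associated macrophages labelled TREM2+ and those labelled TREM2-, from mouse hepatocellular carcinoma, with 3 libraries in each group. TREM2 is a lipid-sensing surface receptor of macrophages. The labels give the tissue as liver tumour for all 6 libraries and state no strain, age, tumour model, sorting gate or treatment, and nothing in them ties replicates to different animals. The p-values therefore measure only how far these libraries scatter, which may be technical.

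NRF2, the protein made from Nfe2l2, is held at a low level by KEAP1, which marks it for degradation, and it accumulates when oxidants or electrophiles modify KEAP1. It then pairs with a small MAF protein on antioxidant response elements and raises genes for glutathione synthesis, thioredoxin recycling and quinone reduction. Much of its control acts on the protein, so the level of the Nfe2l2 transcript is not a measure of NRF2 activity. In macrophages the pathway is known for limiting oxidative damage and inflammatory cytokine expression.

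Recovered reads came to between 12542144 and 17164915 in the TREM2+ libraries and between 11493465 and 19929829 in the TREM2- libraries. Levels are given as TPM, here the deposited length-scaled values rescaled so that each library sums to 1000000. They can be compared between genes only roughly, since the values match scaling by all annotated exons of a gene, not by the transcripts expressed. A repeat family led by Gm10800 made up 0.70% to 17.5% of TREM2+ libraries and 0.43% to 24.6% of TREM2- libraries by TPM, and mitochondrial transcripts took 3.78% to 10.02% and 2.42% to 12.35%. Trem2, which checks the labels, stood at 39.6, 40.8 and 30.7 TPM in TREM2+ replicates 1, 2 and 3, against 16.9, 20.5 and 21.1 TPM in TREM2- replicates 1, 2 and 3, with an adjusted p of 0.0855 in limma. The 10 macrophage genes checked (among them Lyz2, Cd68 and Csf1r) were above 0 in every library and summed to 42005.5 to 54728.0 TPM in TREM2+ and to 60585.4 to 76943.1 TPM in TREM2- libraries. Gene by gene this list went the other way, with a median log2 fold change of 1.04. Of these macrophage genes 3 were higher and 0 lower at an adjusted p under 0.05 in limma, beside 2.05% and 0.37% of all tested genes. Transcripts of 10 neutrophil genes were also abundant, with sums of 16236.1 to 20417.5 TPM and 20440.6 to 23595.0 TPM. In such bulk libraries fewer cells of a type and less RNA per cell cannot be told apart.

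None of the 10 genes passed the test between the groups. Prdx1, a peroxiredoxin, and Srxn1, the enzyme that repairs it, had higher levels in all 3 TREM2+ libraries than in any TREM2- library, and Gsr, glutathione reductase, had lower levels in all 3. Nfe2l2, Slc7a11 and Txnrd1 averaged 1.44 to 1.5 times as much in the TREM2+ libraries, with overlapping groups. The subunits of the glutathione-synthesising ligase, Gclc and Gclm, and Gpx4 and Nqo1 also overlapped between the groups, with mean levels 0.739 to 1.27 times as high in the TREM2+ libraries. The 95% intervals of 7 of the 10 differences included 0, all but those of Nfe2l2, Gsr and Prdx1. Outside these 10, the haem and iron genes Hmox1, Blvrb and Fth1 rose in the TREM2+ libraries.

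The test was limma on log2(TPM + 1) over 13788 genes, with Benjamini-Hochberg adjustment, and fold changes are on that scale, where low genes appear to change less than they do. Of the 10 genes, 0 were higher and 0 were lower at an adjusted p under 0.05, where 2.05% of all tested genes were called higher and 0.37% lower. With limma's voom on recovered reads the counts were also 0 and 0, where 3.32% of all genes in that fit were higher and 1.28% lower. Before adjustment 2 of the 10 had p under 0.05 and were higher (Nfe2l2 and Prdx1), and 1 was lower (Gsr), where 7.45% of all tested genes were higher and 5.34% lower. The groups did not overlap, with the TREM2+ libraries higher, in 2 of the 10 (Prdx1 and Srxn1), against 9.07% of all tested genes, and with the TREM2+ libraries lower in 1 (Gsr), against 7.62%. On the deposited values without rescaling the groups overlapped for all 3, and under TMM and median-of-ratios scaling they lay apart for these 3 and also for Nfe2l2, as higher. The shares of 9.07% and 7.62% belong to the main scaling, and those of all genes under the other scalings were not counted. The median log2 fold change of the 10 genes was 0.44, and 7 were above 0. Over all tested genes the median was -0.09, with 5382 genes above 0. When limma gave each library a weight from its own scatter, 3 of the 10 passed as higher, Nfe2l2 (adjusted p = 0.0456), Txnrd1 (adjusted p = 0.0306) and Prdx1 (adjusted p = 0.0168), where 7.08% of all tested genes did.

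**Figure D1:**
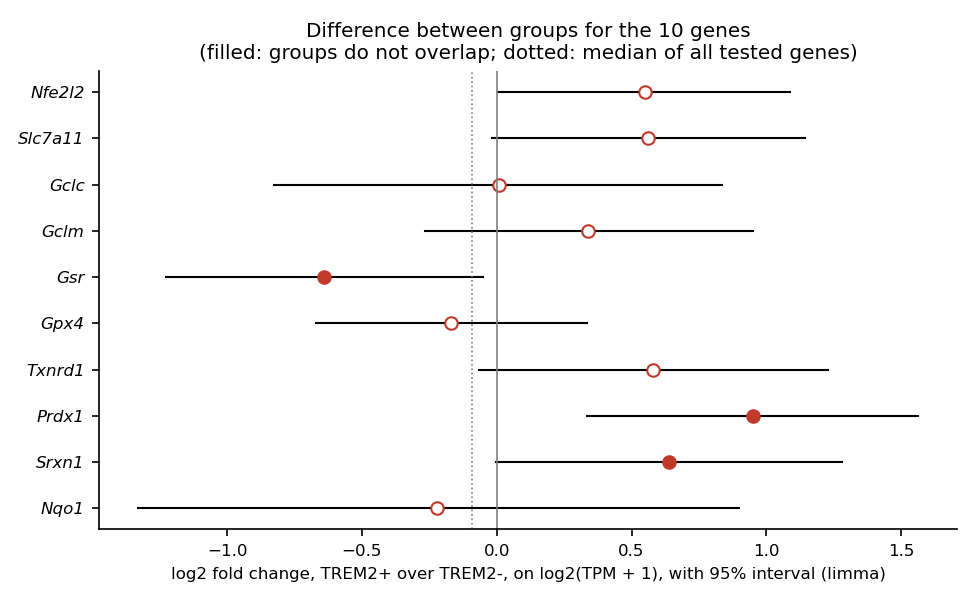
Log2 fold change of each of the 10 genes, TREM2+ over TREM2- libraries, on log2(TPM + 1), with the 95% interval of the limma fit over 3 against 3 libraries. Filled points mark genes whose groups do not overlap, and Prdx1 lies farthest to the right at 0.95 while Gsr lies farthest to the left at -0.64.

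Promoter windows were searched for the letters NRF2 is known to bind, and those of Srxn1 and Prdx1 are shown because these were the 2 genes higher in every TREM2+ library. Nqo1 is shown beside them as a classic NRF2 target whose groups overlapped. The sequences are RefSeq's for GRCm38.p6, 250 bases before to 50 after the gene start, read on the strand of the gene. Capitals mark the antioxidant response core TGACNNNGC or its variant TGAGNNNGC on either strand.
Srxn1, chr2:152105274-152105573, plus strand: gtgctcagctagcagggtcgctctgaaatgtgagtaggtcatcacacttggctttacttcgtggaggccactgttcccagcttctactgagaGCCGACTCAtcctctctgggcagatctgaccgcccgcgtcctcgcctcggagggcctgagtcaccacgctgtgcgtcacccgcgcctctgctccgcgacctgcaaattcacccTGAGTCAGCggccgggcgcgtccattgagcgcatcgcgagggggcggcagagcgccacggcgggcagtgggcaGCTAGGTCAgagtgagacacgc
Prdx1, chr4:116685349-116685648, plus strand: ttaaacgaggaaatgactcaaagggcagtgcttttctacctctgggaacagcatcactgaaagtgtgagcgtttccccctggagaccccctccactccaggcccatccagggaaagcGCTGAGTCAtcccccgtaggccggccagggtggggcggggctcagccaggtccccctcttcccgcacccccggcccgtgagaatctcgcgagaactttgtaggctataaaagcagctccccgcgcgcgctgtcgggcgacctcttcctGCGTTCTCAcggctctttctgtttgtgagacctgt
Nqo1, chr8:107403156-107403455, minus strand: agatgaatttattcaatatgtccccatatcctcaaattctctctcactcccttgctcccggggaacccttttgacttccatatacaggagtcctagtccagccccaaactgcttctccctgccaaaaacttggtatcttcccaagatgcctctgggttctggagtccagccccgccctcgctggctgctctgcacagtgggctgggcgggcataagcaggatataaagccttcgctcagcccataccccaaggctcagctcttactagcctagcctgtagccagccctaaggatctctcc

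The Srxn1 window held 1 core and 2 variant cores, and that of Prdx1 held 1 core and 1 variant core. The core of Prdx1, 133 bases before the gene start and on the opposite strand, reads tgactcagc there and overlaps an AP-1 site, TGACTCA. In Srxn1 the variant core 45 bases before the start reads tgagtcagc and overlaps the same site. The Nqo1 window held none, which says only that these letters are not in this stretch. Windows were found for 8 of the 10 genes, all but Gclc and Gsr. Of these 8, 6 held a core or variant core in at least 1 window (Nfe2l2, Gclm, Slc7a11, Txnrd1, Srxn1 and Prdx1), as did 6 of their 13 windows. The groups overlapped for Nfe2l2, Gclm, Slc7a11 and Txnrd1, so a core was not particular to the genes whose groups lay apart. Of 32817 windows of all genes, 12.4% held TGACNNNGC, 17.7% held TGAGNNNGC, 27.8% held either and 5.2% held TGACTCA. A match is a run of letters and was not tested as a binding site.

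Coordinates are those of GENCODE M21 on mm10. Nfe2l2 (ENSMUSG00000015839.6, chromosome 2, 75675513 to 75704641) had 142, 156 and 182 TPM in TREM2+ replicates 1, 2 and 3, against 143, 98.2 and 92.1 TPM in TREM2- replicates 1, 2 and 3. The groups overlapped only through TREM2- replicate 1, which stood level with the lowest TREM2+ library. The means were 160 ± 20 TPM and 111 ± 27.6 TPM (SD, n = 3 each), with a log2 fold change of 0.55 ± 0.24 (SE; 95% interval 0.0042 to 1.09) and an adjusted p of 0.387 in limma. Without TREM2- replicate 1 the log2 fold change was 0.74 with an adjusted p of 0.148. Nfe2l2 was the fourth highest of the 10 genes.

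The glutathione supply genes came next. Slc7a11 (chromosome 3, 49892526 to 50443614) encodes the cystine carrier xCT, which brings in the cystine that limits glutathione synthesis. Its level was 19.6, 14.7 and 20 TPM in TREM2+ replicates 1, 2 and 3, and 11.0, 15.8 and 9.4 TPM in TREM2- replicates 1, 2 and 3. TREM2+ replicate 2 lay below TREM2- replicate 2, and the other libraries were ordered by group. Its log2 fold change came to 0.56 ± 0.26 (95% interval -0.016 to 1.14), with an adjusted p of 0.412 in limma.

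Gclc (chromosome 9, 77754535 to 77794485) encodes the catalytic subunit of glutamate-cysteine ligase, the first step of glutathione synthesis. It had 24.6, 16.4 and 12.5 TPM in TREM2+ replicates 1, 2 and 3, and 21.2, 24.0 and 9.78 TPM in TREM2- replicates 1, 2 and 3. Both groups spread over about the same range, with coefficients of variation of 34.5% and 41.1%. With a log2 fold change of 0.01 ± 0.37 (adjusted p = 0.998 in limma), its 95% interval of -0.83 to 0.84 took in differences of either sign.

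Gclm (chromosome 3, 122245557 to 122270732) encodes the modifier subunit, which raises the activity of the ligase. Its values were 20.4, 14.3 and 14.9 TPM in TREM2+ replicates 1, 2 and 3 against 12, 17.3 and 9.66 TPM in TREM2- replicates 1, 2 and 3. TREM2- replicate 2 exceeded 2 of the TREM2+ libraries. Between the groups the log2 fold change was 0.34 ± 0.27 (95% interval -0.26 to 0.95, adjusted p = 0.717 in limma). The profiles of Gclm and Slc7a11 over the 6 libraries were the most alike of any pair of the 10, with a root mean square difference of 0.18 between their centred log2(TPM + 1) values.

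**Figure D2:**
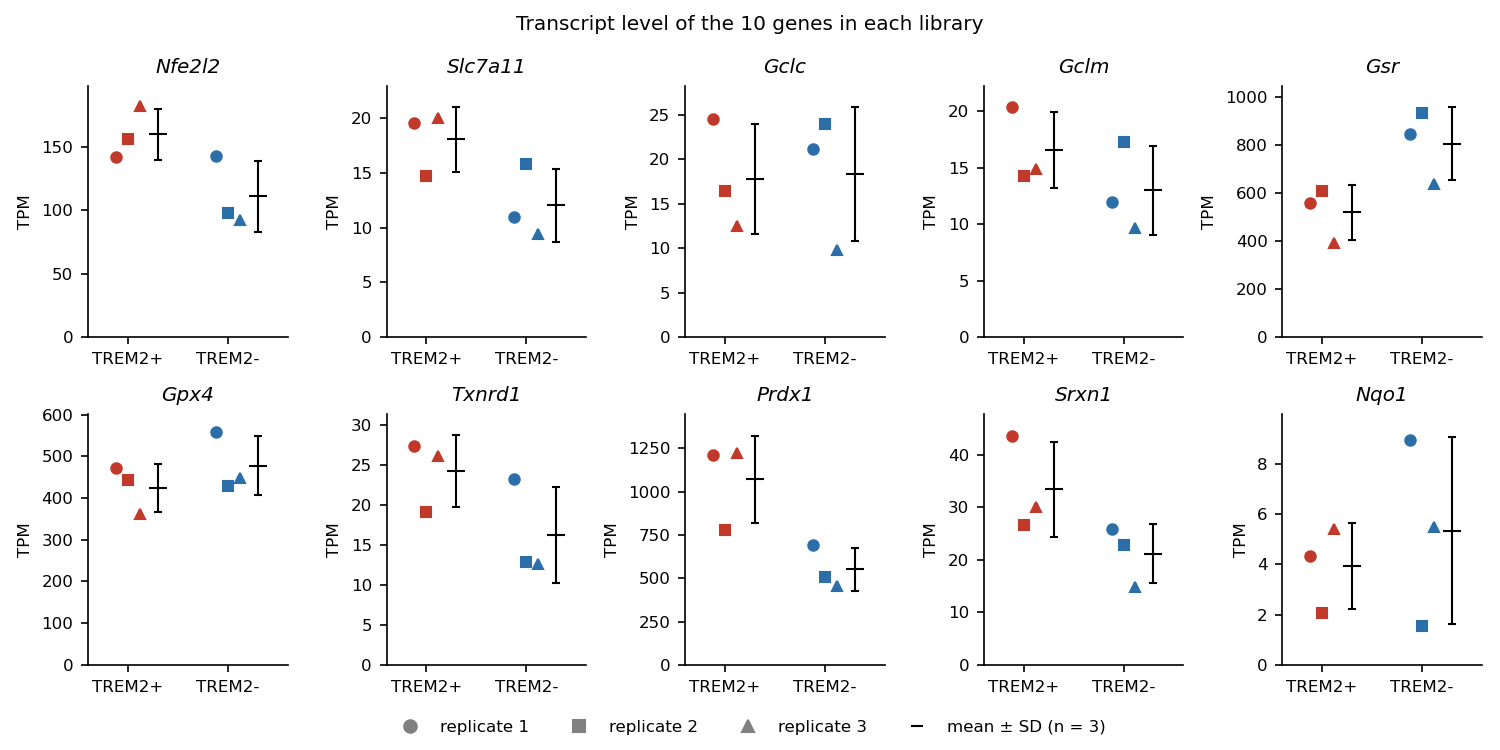
TPM of each of the 10 genes in every library, TREM2+ left of TREM2-, with the replicate number as the symbol and the mean ± SD (n = 3) as a bar. Prdx1 and Srxn1 lie higher and Gsr lower in all 3 TREM2+ libraries, and the other panels overlap.

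Among genes that recycle and spend glutathione, Gsr (chromosome 8, 33652523 to 33698163) returns oxidised glutathione to its reduced form with NADPH. It had 559, 611 and 391 TPM in TREM2+ replicates 1, 2 and 3, against 848, 935 and 639 TPM in TREM2- replicates 1, 2 and 3. Every TREM2+ library lay below every TREM2- library, though TREM2+ replicate 2 and TREM2- replicate 3 came close to each other, at 611 and 639 TPM. The means were 520 ± 115 TPM and 807 ± 152 TPM (SD, n = 3 each), a log2 fold change of -0.64 ± 0.26 (95% interval -1.23 to -0.052) with an adjusted p of 0.339 in limma. For Gsr p was 0.1 in a two-sided exact permutation test, the smallest that 3 against 3 libraries allow. Summed neutrophil genes also lay lower, narrowly apart, with 16236.1, 20417.5 and 19178.3 TPM in TREM2+ replicates 1, 2 and 3 against 21021.3, 20440.6 and 23595.0 TPM in TREM2- replicates 1, 2 and 3. Of these 10 genes 1 was called lower, beside 0.37% of all tested genes. Before adjustment 2 were higher and 5 lower, beside 7.45% and 5.34%. Their part in the Gsr values was not tested. Of 8 classical monocyte genes 1 was called lower, and before adjustment 0 were higher and 5 lower, beside the same shares. Their median log2 fold change was -0.94, while their sums overlapped, at 3945.2 to 30562.7 TPM and 13918.6 to 75513.7 TPM. The part of the monocyte genes was not tested either.

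Gpx4 (chromosome 10, 80047166 to 80056439) encodes the selenium-containing peroxidase that uses glutathione to reduce lipid peroxides in membranes and so prevents ferroptosis. It had 472, 442 and 361 TPM in TREM2+ replicates 1, 2 and 3, and 558, 428 and 447 TPM in TREM2- replicates 1, 2 and 3. The groups overlapped, and the log2 fold change of -0.17 ± 0.22 had the narrowest 95% interval of the 10, -0.67 to 0.34 (adjusted p = 0.85 in limma). Of the 50-base stretches of its transcripts 34.7% also occur in other annotated genes, mainly Gpx4-ps2 (at most 47.5 TPM), so part of its reads could have been counted elsewhere.

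In the thioredoxin arm, Txnrd1 (chromosome 10, 82833951 to 82897712) encodes the reductase that keeps thioredoxin reduced. It had 27.4, 19.1 and 26.2 TPM in TREM2+ replicates 1, 2 and 3, against 23.2, 12.9 and 12.6 TPM in TREM2- replicates 1, 2 and 3. As for Nfe2l2, TREM2- replicate 1 was the library that reached into the TREM2+ range. The log2 fold change was 0.58 ± 0.29 (95% interval -0.064 to 1.23) with an adjusted p of 0.468 in limma, and 0.85 with an adjusted p of 0.131 without TREM2- replicate 1. Txnrd1 overlaps Gm38560, on the other strand, which reached at most 7.43 TPM, and with the strand setting unknown their reads cannot be told apart.

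Prdx1 (chromosome 4, 116685544 to 116700822) encodes a thiol peroxidase that removes hydrogen peroxide and draws its electrons from thioredoxin. It was at 1210.5, 780 and 1221.3 TPM in TREM2+ replicates 1, 2 and 3, against 691, 510 and 454 TPM in TREM2- replicates 1, 2 and 3. No TREM2- library reached the lowest TREM2+ library. The means were 1070.7 ± 252 TPM and 552 ± 124 TPM (SD, n = 3 each), 1.94 times as much in the TREM2+ libraries. The log2 fold change was 0.95 ± 0.27 (95% interval 0.33 to 1.56), with an unadjusted p of 0.00682 and an adjusted p of 0.141 in limma. Of the tested genes, 4.55% had a larger log2 fold change. Its transcripts share 8.81% of their 50-base stretches with other annotated genes, of which Gm21399, the one that shares most, reached at most 3.69 TPM.

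Srxn1 (chromosome 2, 152105516 to 152111376) encodes sulfiredoxin, which restores peroxiredoxins whose active cysteine has been over-oxidised. It had 43.7, 26.6 and 30.1 TPM in TREM2+ replicates 1, 2 and 3, against 25.9, 22.8 and 14.9 TPM in TREM2- replicates 1, 2 and 3. The groups lay apart by less than 1 TPM, between TREM2+ replicate 2 and TREM2- replicate 1. This gave a log2 fold change of 0.64 ± 0.28 (95% interval -0.0035 to 1.28) with an adjusted p of 0.395 in limma.

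Nqo1 (chromosome 8, 107388225 to 107403206) encodes a quinone reductase often used as a readout of NRF2. It was the lowest of the 10, with 4.34, 2.08 and 5.42 TPM in TREM2+ replicates 1, 2 and 3, against 8.96, 1.55 and 5.5 TPM in TREM2- replicates 1, 2 and 3. These values rest on 52, 23 and 54 reads in TREM2+ replicates 1, 2 and 3 and on 124, 18 and 55 reads in TREM2- replicates 1, 2 and 3. The libraries numbered 2 were the lowest of each group. The log2 fold change of -0.22 ± 0.49 had the widest 95% interval of the 10, -1.33 to 0.90 (adjusted p = 0.92 in limma). Of 10 hepatocyte and liver tumour genes, all above 0 in every library, the sums were 410, 136 and 149 TPM in TREM2+ replicates 1, 2 and 3 and 587, 94.0 and 96.5 TPM in TREM2- replicates 1, 2 and 3, so TREM2- replicate 1 was the highest library in both measures, and the part of these genes in the Nqo1 values was not tested.

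Over all 6 libraries the order of the mean levels was Prdx1 (811 TPM), Gsr (664 TPM), Gpx4 (451 TPM), Nfe2l2 (136 TPM), Srxn1 (27.3 TPM), Txnrd1 (20.2 TPM), Gclc (18.1 TPM), Slc7a11 (15.1 TPM), Gclm (14.7 TPM) and Nqo1 (4.64 TPM). The ranges of Gpx4 and Nfe2l2, of Nfe2l2 and Srxn1, and of Gclm and Nqo1 did not overlap, and all other neighbours in this order overlapped. Prdx1 exceeded Gsr in 3 of the 6 libraries, which were the 3 TREM2+ libraries. Slc7a11 exceeded Gclm in 2 of 6.

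TREM2- replicate 3 was the lowest library for 7 of the 10 genes, all but Gpx4, Gsr and Nqo1, and it also held the largest share of the repeat family, 24.6% of its TPM. With that family left out of the totals it was the lowest for 2 genes, Gclc and Srxn1, and TREM2- replicate 2 was the lowest for 4. Under this scaling Nfe2l2 also ceased to overlap, but by less than rounding, since TREM2+ replicate 1 and TREM2- replicate 1 both stood at 143 TPM. Gpx4 ceased to overlap too, with values of 475, 466 and 437 TPM in TREM2+ replicates 1, 2 and 3 against 561, 492 and 593 TPM in TREM2- replicates 1, 2 and 3. How many of all genes lay apart under this scaling was not counted. None of the 10 passed the test there either. With the family kept in the totals, TREM2+ replicate 1 was the highest library for 4 genes (Gclc, Gclm, Txnrd1 and Srxn1). TREM2+ replicate 3 was then the highest for 3 (Nfe2l2, Slc7a11 and Prdx1). With the family left out, TREM2+ replicate 1 was the highest for 2 genes and TREM2+ replicate 3 for 4.

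Ratios of partner genes within a library do not depend on how the library was scaled, and 5 were compared. The ratio of Txnrd1 to Gsr, the reductases of the thioredoxin and the glutathione systems, was 0.0489, 0.0312 and 0.067 in TREM2+ replicates 1, 2 and 3, against 0.0274, 0.0138 and 0.0198 in TREM2- replicates 1, 2 and 3. All 3 TREM2+ libraries lay above all 3 TREM2- libraries, with mean log2 ratios of -4.42 ± 0.55 and -5.68 ± 0.49 (SD, n = 3 each), a difference of 1.26. The ratio of Gsr to Gclc was 22.7, 37.2 and 31.2 in TREM2+ replicates 1, 2 and 3, against 40.1, 38.9 and 65.3 in TREM2- replicates 1, 2 and 3, again without overlap, with a log2 difference of -0.65. Both gave p = 0.1 in the exact permutation test, two-sided, the smallest possible here, and p = 0.25 after adjustment over the 5 ratios. Both contain Gsr, whose own groups lay apart, so they are not separate from the Gsr difference.

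The other 3 ratios overlapped between the groups. Gclm to Gclc, the modifier over the catalytic subunit, was 0.828, 0.869 and 1.19 in TREM2+ replicates 1, 2 and 3, against 0.569, 0.719 and 0.988 in TREM2- replicates 1, 2 and 3, a log2 difference of 0.36. The log2 difference was -0.29 for Srxn1 to Prdx1. It was -0.14 for Slc7a11 to Slc3a2, the heavy chain that carries xCT to the membrane, and this ratio changed sign to 0.03 without TREM2+ replicate 2. Each of these 3 had p = 0.5 after adjustment in the exact permutation test.

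**Figure D3:**
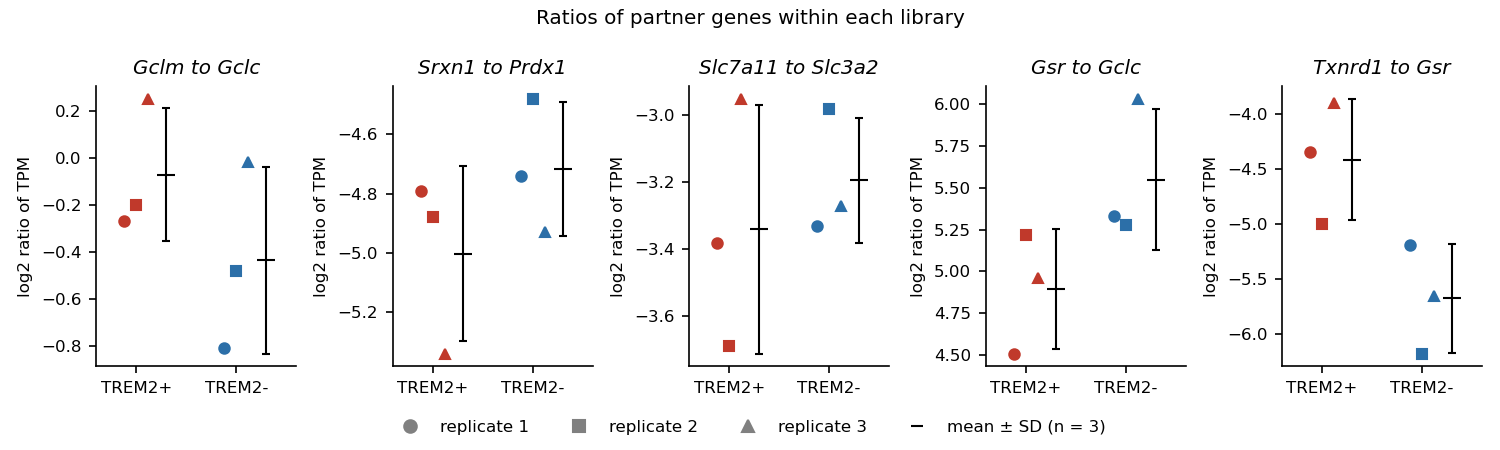
Log2 ratio of the TPM of 5 pairs of genes within each library, TREM2+ left of TREM2-, with the mean ± SD (n = 3) as a bar. Txnrd1 to Gsr is higher and Gsr to Gclc lower in all 3 TREM2+ libraries, and the other 3 ratios overlap.

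Of 100 further genes of the pathway, in 5 lists, 97 were tested, 5 rose and 0 fell in the TREM2+ libraries, beside 2.05% and 0.37% of all tested genes, with a median log2 fold change of -0.03 against -0.09 for all tested genes. With voom 8 rose and 1, the membrane-bound transferase gene Mgst1, fell, beside 3.32% and 1.28% of all genes in that fit. Among 22 other NRF2 targets 3 rose, 0 fell and 19 did not pass, with a median of 0.04. Before adjustment 9 of the 22 were higher and 1 was lower, beside 7.45% and 5.34% of all tested genes. The groups lay apart in 8 with the TREM2+ libraries higher and in 2 with them lower, beside 9.07% and 7.62%. The 3 that passed act on haem and iron. Hmox1, the haem oxygenase that opens the haem ring, had 1113.5, 487 and 693 TPM in TREM2+ replicates 1, 2 and 3, against 169, 176 and 151 TPM in TREM2- replicates 1, 2 and 3, a log2 fold change of 2.12 ± 0.30 with an adjusted p of 0.00975 in limma. Every TREM2+ library was well above the TREM2- libraries, which lay close together. On simulated reads the limma fit made a larger share of false calls than its nominal threshold, which limits each call among these further genes.

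Blvrb, a reductase of biliverdin and flavins, had 129, 83.8 and 117 TPM in TREM2+ replicates 1, 2 and 3, against 38.2, 31.0 and 27.4 TPM in TREM2- replicates 1, 2 and 3 (log2 fold change 1.73 ± 0.24, adjusted p = 0.00936 in limma). Fth1, the heavy chain of the iron store ferritin, had 12197.2, 9680.8 and 11429.2 TPM in TREM2+ replicates 1, 2 and 3, against 3517.5, 4047.3 and 4111.8 TPM in TREM2- replicates 1, 2 and 3 (log2 fold change 1.51 ± 0.23, adjusted p = 0.0135 in limma). In none of the 3 genes did the groups overlap. Blvrb passed in all 6 fits that leave out 1 library. The Hmox1 call was lost without TREM2- replicate 3 (adjusted p = 0.0504) and without the filter on low values (adjusted p = 0.0614). That of Fth1 was lost without TREM2- replicate 1 (adjusted p = 0.0514), TREM2- replicate 3 (adjusted p = 0.088) or TREM2+ replicate 1 (adjusted p = 0.0711), and also without the filter (adjusted p = 0.208) or with the replicate number as a block (adjusted p = 0.0709). Without both libraries numbered 3 all 3 calls were lost, with adjusted p from 0.209 (Blvrb) to 0.336 (Fth1), and those of Gstm5 and Selenop were lost as well (0.27 and 0.145).

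**Figure D4:**
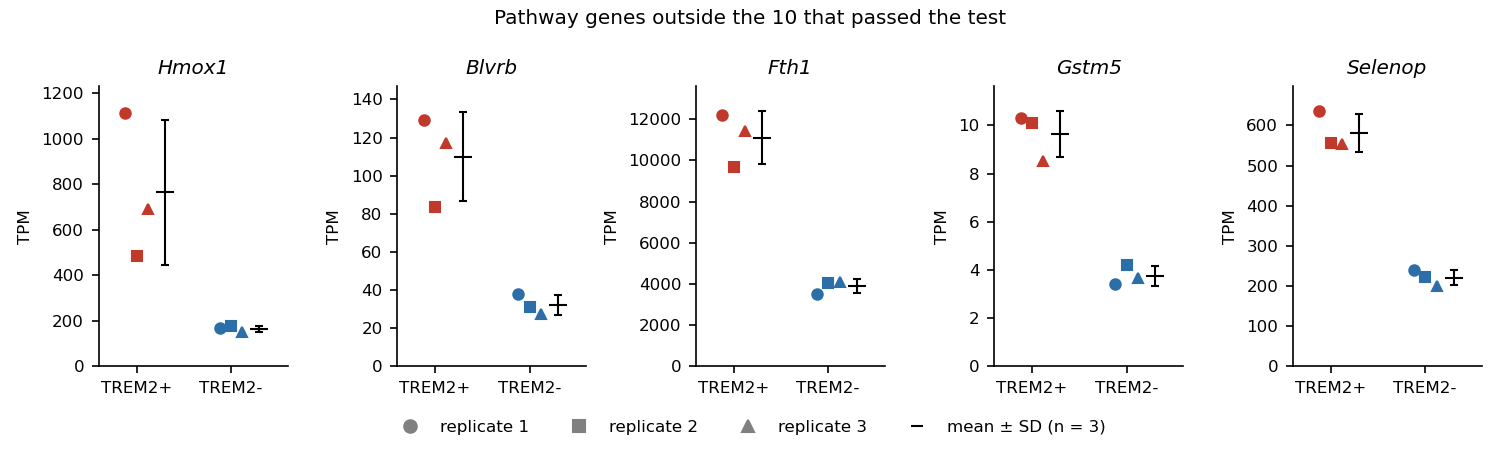
TPM of the 5 further pathway genes that passed the test, in every library, TREM2+ left of TREM2-, with the mean ± SD (n = 3) as a bar. All 3 TREM2+ libraries lie above all 3 TREM2- libraries in each panel, with the largest ratio of means, 4.63, for Hmox1.

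In the list of 28 other genes of glutathione synthesis and use, 1 rose, 0 fell and 27 did not pass. Of all tested genes 2.05% rose and 0.37% fell. The median log2 fold change of the list was -0.15. Gstm5, a glutathione transferase, had 10.3, 10.1 and 8.53 TPM in TREM2+ replicates 1, 2 and 3, against 3.42, 4.2 and 3.65 TPM in TREM2- replicates 1, 2 and 3 (log2 fold change 1.16 ± 0.22, adjusted p = 0.0287 in limma). It rests on 101, 92 and 70 reads in TREM2+ replicates 1, 2 and 3 and on 39, 40 and 30 reads in TREM2- replicates 1, 2 and 3. Its call was lost without any 1 of TREM2+ replicates 1, 2 and 3 or TREM2- replicate 3, with adjusted p between 0.0666 and 0.174. It was also lost with the replicate number as a block (adjusted p = 0.0781), without the filter (adjusted p = 0.102) and on the deposited values without rescaling (adjusted p = 0.234). The groups did not overlap in 3 of the 28 with the TREM2+ libraries higher and in 4 with them lower, where 9.07% and 7.62% of all tested genes did not.

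Of 20 ferroptosis and selenoprotein synthesis genes 19 were tested, with a median of -0.07. Of these 1 rose and 0 fell, beside 2.05% and 0.37% of all tested genes. Selenop, a secreted selenoprotein that carries selenium between tissues, had 637, 557 and 553 TPM in TREM2+ replicates 1, 2 and 3, against 239, 223 and 201 TPM in TREM2- replicates 1, 2 and 3 (log2 fold change 1.39 ± 0.20, adjusted p = 0.00992 in limma). The call was lost without TREM2+ replicate 1 (adjusted p = 0.0513) and on the deposited values without rescaling (adjusted p = 0.106). Selenop shares 13.5% of its 50-base stretches with Ccdc152, an overlapping gene on the other strand, which reached at most 1.53 TPM.

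No member of the list of NRF2 partners and regulators (10 genes, median -0.04) passed in limma, nor with voom, and 1 of the 10 was higher before adjustment, beside 7.45% of all tested genes. The smallest p-values were those of Maff, a small MAF partner, with 6.76 ± 1.09 TPM in TREM2+ and 3.25 ± 0.651 TPM in TREM2- libraries (SD, n = 3 each, adjusted p = 0.125 in limma), and of Sqstm1, a cargo receptor that binds KEAP1, with 249 ± 52.5 TPM and 177 ± 37.3 TPM (adjusted p = 0.489 in limma). Of 20 thioredoxin, peroxiredoxin and superoxide genes 18 were tested and none passed in limma, nor with voom, with a median of 0.07 and 2 of the 18 higher before adjustment, beside the same 7.45%. Txn1, the cytosolic thioredoxin reduced by the Txnrd1 product, had 847, 613 and 731 TPM in TREM2+ replicates 1, 2 and 3, against 519, 476 and 429 TPM in TREM2- replicates 1, 2 and 3, without overlap (log2 fold change 0.61 ± 0.22, adjusted p = 0.262 in limma). Sesn2, a stress-induced sestrin, averaged 22.2 ± 2.60 TPM and 14.6 ± 3.37 TPM (SD, n = 3 each, adjusted p = 0.342 in limma).

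**Figure D5:**
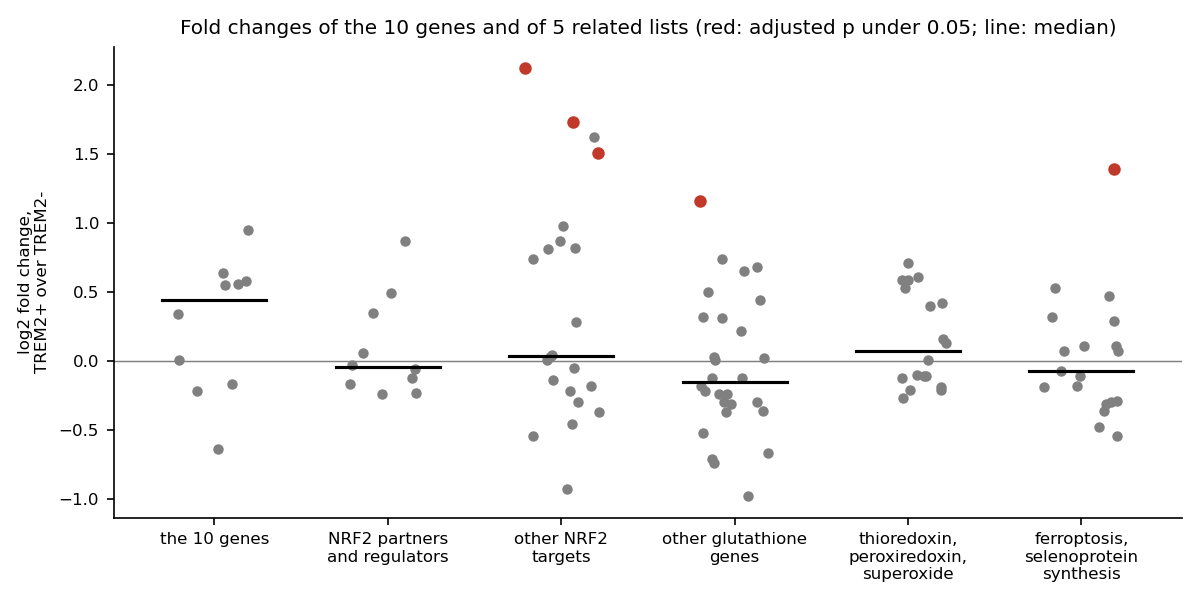
Log2 fold change, TREM2+ over TREM2- libraries, of the 10 genes and of the tested members of 5 related lists, with list medians as lines. The 5 red points, Hmox1, Blvrb, Fth1, Gstm5 and Selenop, passed the test, and none of the 10 genes did.

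Transcripts of other cell types differed between the same groups and stand beside all of these values. Of 10 endothelial genes 9 were called higher, with sums of 372, 262 and 288 TPM in TREM2+ replicates 1, 2 and 3 against 42.5, 37.0 and 21.5 TPM in TREM2- replicates 1, 2 and 3. Basophil and mast cell genes (7 genes, 3 called lower) summed to 18.3 to 27.4 TPM in TREM2+ and to 118 to 221 TPM in TREM2- libraries, and T and NK cell genes (10 genes, 0 called) to 1113.8 to 1171.9 TPM and 1705.3 to 3861.3 TPM. Dendritic cell genes (8 genes, 1 called lower) summed to 55.8 to 74.8 TPM in TREM2+ and to 97.5 to 256 TPM in TREM2- libraries. Red blood cell genes, which stand beside the haem and iron genes above, summed to 4229.6, 26385.6 and 7633.3 TPM in TREM2+ replicates 1, 2 and 3 and to 8622.2, 9987.9 and 30655.9 TPM in TREM2- replicates 1, 2 and 3, with overlap and none of the 5 tested called. Among the macrophage genes 3 of 10 were called higher, the C1q subunits. Beside these counts, 2.05% of all tested genes were called higher and 0.37% lower. No marker of these lists was at 0 in any library. Their part in the antioxidant results was not tested.

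By the distance between centred profiles over the 6 libraries, the genes nearest to Nfe2l2 among 5858 with a mean of at least 10 TPM were Snap23 (0.095), Dynlt3 (0.099) and Sh3bgrl (0.099), where the value is the root mean square difference in log2(TPM + 1). Those nearest to Prdx1 were AW112010 (0.105), Slc16a3 (0.105) and Ehd1 (0.128). None of these 6 passed the test, with log2 fold changes between 0.44 and 0.97.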

How the data were processed

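Libraries of polyadenylated RNA, 3 TREM2+ and 3 TREM2-, were read from both ends (Illumina), per the labels' protocols. Per the submitters' processing notes, STAR 2.7.10a, Subread, featureCounts 2.0.3 and mm10 were used. Which annotation, strand setting and formula applied is not given in the sources used here, and reads of overlapping genes cannot be told apart. The deposited values are a length-scaled signal that sums to 1000000 over the 6 columns together, not in each, although the table is named as TPM. Each library was rescaled to 1000000. No column lacked a sample. Multiplied by GENCODE M21 exon lengths, 98.7% of 36673 matched rows above 0 gave whole reads within 0.01 read in all 6 libraries. They served to judge depth and in 1 alternative.

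The test was limma 3.58.1 (R 4.3.3), two-sided and with the trend option, applied to log2(TPM + 1) of genes reaching 1 TPM in 3 or more libraries. Calls used an adjusted p (Benjamini-Hochberg) under 0.05. Errors of fold changes are standard errors of that fit. On simulated reads with known changes the fit recovered most changed genes, and the share of false calls exceeded the nominal 0.05. Scatter was drawn for each gene separately, and the repeat family was given the median scatter. Its large swings between libraries were therefore not simulated. Recovery of changes as small as those of the antioxidant genes described was not tested. The simulation therefore cannot show that their lack of calls means a lack of difference. The excess of false calls applies to Hmox1, Blvrb, Fth1, Gstm5 and Selenop as to every other call. A count model was not used, since the deposited values are not counts, and limma's voom on recovered reads was added in its place. Replicates of a group differed by more than sampling noise, with chi-square per degree of freedom of 65.7 to 200.

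All 10 genes are described. In each further list the text names the called genes, at most 6, or else the 2 with the smallest p, and also the 3 profiles nearest to Nfe2l2 and to the member with the smallest p. The members, lists and tests were chosen with earlier results of these data known. Shared stretches and promoter motifs were searched in GENCODE M21 transcripts and RefSeq windows. Alternatives covered pseudocount, filter, scaling, replicate block, weights and each library left out. Voom, the repeat family (12 genes, with at least 10% of 20-base stretches in Gm10800), both libraries numbered 3 left out, and the deposited values without rescaling were added after seeing the data.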

Additional observations from a re-analysis of the deposited data

How the results depend on the processing

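Of the 17 alternatives, none but library weights brought any of the 10 genes past the threshold, where 3 were higher. Gclm, Gsr, Nfe2l2, Prdx1, Slc7a11, Srxn1 and Txnrd1 kept their direction in all 17. The log2 fold change of Gclc, 0.01, turned to -0.03 with library weights, -0.24 without TREM2+ replicate 1, -0.37 without TREM2- replicate 3, -0.07 with voom, -0.07 without the repeat family, -0.16 without both libraries numbered 3 and -0.08 on the deposited values. That of Nqo1 turned to 0.57 with weights, 0.09 without TREM2+ replicate 2 and 0.21 without TREM2- replicate 1, and that of Gpx4 to 0.04 with weights. With 1 library left out the range was -0.37 to 0.24 for Gclc and -0.77 to 0.21 for Nqo1. TMM scaling moved the median of all genes from -0.09 to 0.01.

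Genes called higher in limma, 282, numbered 95 without a filter, 458 with TMM scaling, 976 with weights, 443 with voom and 0 without both libraries numbered 3, where 636 higher and 444 lower had an unadjusted p under 0.05. Genes called lower, 51, numbered 31 with a pseudocount of 0.1, 3 without a filter, 80 with median-of-ratios scaling, 389 with weights, 171 with voom, 101 without the repeat family, 0 without both libraries numbered 3 and 92 on the deposited values. Leaving out 1 library gave 116 to 342 higher and 7 to 105 lower, with the fewest higher without TREM2- replicate 3 and the fewest lower without TREM2- replicate 1. Median-of-ratios scaling raised the called NRF2 regulators to 1 (Maff), other targets to 5 (with Ephx1 and Tbxas1) and other glutathione genes to 2 (with Slc3a2). Over all genes it raised those called higher as well, from 282 of 13788 to 420 of 13794. The cause of these changes was not tested.

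Leaving out 1 library, the log2 differences of the ratios ran from 0.17 to 0.57 for Gclm to Gclc, -0.39 to -0.12 for Srxn1 to Prdx1, -0.34 to 0.03 for Slc7a11 to Slc3a2, -0.81 to -0.41 for Gsr to Gclc and 1.0 to 1.55 for Txnrd1 to Gsr. The replicate numbers were not taken as pairs in the main fit. Deviations of same-numbered libraries had correlations of 0.19, -0.03 and 0.22. For the libraries numbered 1 and 3 these were their highest with any library of the other group. TREM2+ replicate 2 was closest to TREM2- replicate 3, at 0.13. Libraries numbered 1 had the most reads and the smallest share of the repeat family in both groups, and those numbered 3 the fewest reads and the largest share. Whether a number marks a shared batch was not tested. With a replicate block 116 genes were higher, 10 lower and 0 of the 10 genes passed, and of the 5 called further genes Fth1 and Gstm5 lost their call. The planned edgeR test was not run. Depth limits Nqo1 most, with 18 to 124 reads a library.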
